A study of Sus scrofa with 24 samples.

Results

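Cytosolic ribosomal protein genes were followed through growth in pig tissue, from late fetal life to 188 days after birth. A gene was taken as a member when a probe set carried a single platform symbol that starts with RPL or RPS and a digit, or the symbol RPSA. Kinase, binding-protein and minor look-alike names (RPS6K, RPS19BP, RPL7L and RPS27L) were left out. The rule gave 58 genes of 6765 with a single symbol, 24 of the small and 34 of the large subunit, and each gene was read from its brightest probe set. The rule used no difference between stages.

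Total RNA came from offspring of German Landrace gilts, all of which ate a high protein diet in gestation, and 1 Affymetrix Porcine array was run for each of 24 animals. The 4 stages, with 6 animals each, were day 94 after conception (94 dpc) and days 1, 28 and 188 after birth (dpn, days post natum). No other diet is analysed here, so every comparison is between stages. Only 3 gilts supplied the 6 animals of a stage and no label ties an animal to its mother, so p-values that treat 6 animals as independent are too small by an unknown amount.

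Each cytosolic ribosome holds 1 small subunit, which reads the message, and 1 large subunit, which joins amino acids and threads the new chain out through a tunnel. Their proteins are made in near-equal numbers, and surplus copies are broken down. Vertebrate mRNAs of these proteins start with a run of pyrimidines (a TOP motif) through which the growth-regulating kinase mTOR controls their translation as a group. Growing muscle builds many ribosomes, and a few ribosomal proteins have a second gene whose product can take the place of the common one.

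The sample labels name liver while the series title names muscle. Skeletal muscle markers were bright in every array, with a list median between 21171 and 70779 in scaled signal, and 12 of the 15 listed markers were measured. Plasma protein genes of liver (13 of 14 listed measured) had list medians of 13118, 9475 and 2155 in 188 dpn animals 1, 2 and 3, against 22.7 to 112 in 188 dpn animals 4 to 6. Such signal was not confined to that stage: the list median reached 2279 at 1 dpn (animal 3, with 1242 in animal 1 and 1031 in animal 6) and 1415 at 94 dpc (animal 2), and at most 592 at 28 dpn. In 1 dpn animals 1, 2 and 3 the elongation factor EF1A control read 0.135, 0.105 and 0.0963 of its 3′ signal at its 5′ end, against 0.670 to 0.703 in 1 dpn animals 4 to 6. The EF1A ratio also moved with stage, and no postnatal array reached the fetal ones. Fetal arrays read 0.988 to 1.05, those of 28 dpn 0.638 to 0.696 and those of 188 dpn 0.512 to 0.656. The same ratio of the GAPDH control differed: 1 dpn animals 4 to 6 read 0.907 to 0.996, above the fetal 0.780 to 0.870. On GAPDH 1 dpn animals 1 to 3 read 0.424, 0.581 and 0.616, 28 dpn 0.614 to 0.736 and 188 dpn 0.624 to 0.725. The part of these ratios in the differences of later stages from 94 dpc was not tested. Animal 5 of 94 dpc had a median of 2133 for macrophage and antigen presentation genes, against 347 to 572 in the other 94 dpc animals. What part these arrays had in any result was not tested beyond the values given without them.

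The level of the family as a whole could not be fixed, because it turned with the scaling of the arrays. In the deposited values the median member signal spanned 23222 to 34408 at 94 dpc and 37149 to 44609.7 at 1 dpn. It then spanned 28451 to 32626 at 28 dpn, with 28741 to 33822 found at 188 dpn. The newborn arrays were thus the highest and overlapped no other stage. The median fitted difference over members was 0.44 in log2 at 1 dpn against 94 dpc, -0.40 at 28 dpn against 1 dpn, -0.02 at 188 dpn against 28 dpn and 0.04 at 188 dpn against 94 dpc. Over all tested probe sets the same medians were -0.15, 0.02, -0.18 and -0.29. With quantile normalization the newborn difference became -0.16, and with arrays centred on the spiked hybridisation controls it became -0.86. Those controls had a mean signal of 5884 to 9144 at 1 dpn and 2240.4 to 3452 at 94 dpc. Centring on the controls also turned 28 dpn against 1 dpn to 0.36. In a bulk sample, fewer cells of a type and less RNA per cell cannot be told apart.

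On the deposited scale 32 of 58 members were called higher and 1 lower at 1 dpn against 94 dpc, where 10.1% of all probe sets were called higher and 20.8% lower (limma, Benjamini-Hochberg adjusted p of at most 0.05). At 28 dpn against 1 dpn 1 member was called higher and 29 lower, beside 11.6% and 9.1% of all probe sets. For 188 dpn against 28 dpn 0 were called higher and 1 lower, beside 4.12% and 10.5%, and the lower one was RPL3. Over the whole span, 188 dpn against 94 dpc, the counts were 6 higher and 8 lower, beside 12.5% and 27.4%. Here too the counts changed with the scaling: quantile normalization gave 0 higher and 34 lower, centring on array medians 40 and 1, and centring on the hybridisation controls 0 and 39. Arrays did not overlap between the stages for 29 higher members and 1 lower one at 1 dpn against 94 dpc (5.05% and 8.66% of all probe sets). For 28 dpn against 1 dpn these counts were 0 and 28 (5.59% and 3.81%), for 188 dpn against 28 dpn 2 and 1 (4.41% and 7.84%), and for 188 dpn against 94 dpc 4 and 5 (9.58% and 19.5%). The newborn calls changed side with the scaling: centring on the hybridisation controls gave 0 higher and 57 lower. Such centring shifts all probe sets of an array alike. Shares of all probe sets under quantile normalization and under either centring are not given here. The member counts under these scalings therefore do not set the members apart from the arrays as a whole.

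The rank of the family within an array does not change with array scaling. The share of tested probe sets brighter than the family median was 0.313% to 0.372% at 94 dpc and 0.418% to 0.547% at 1 dpn. The range became 0.597% to 0.677% at 28 dpn, with 0.535% to 0.631% found at 188 dpn. The 94 dpc arrays overlapped no later stage, and the 28 dpn and 188 dpn arrays overlapped each other. The family therefore stayed among the brightest transcripts at every age, with more transcripts above it after birth. These shares are a description of the members and carry no test. The highest member value was 85312 and the highest value per array lay between 40623 and 101178, so members sit close to the top of the range. The files hold no saturation flags, and compression at the top was not tested.

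**Figure D1:**
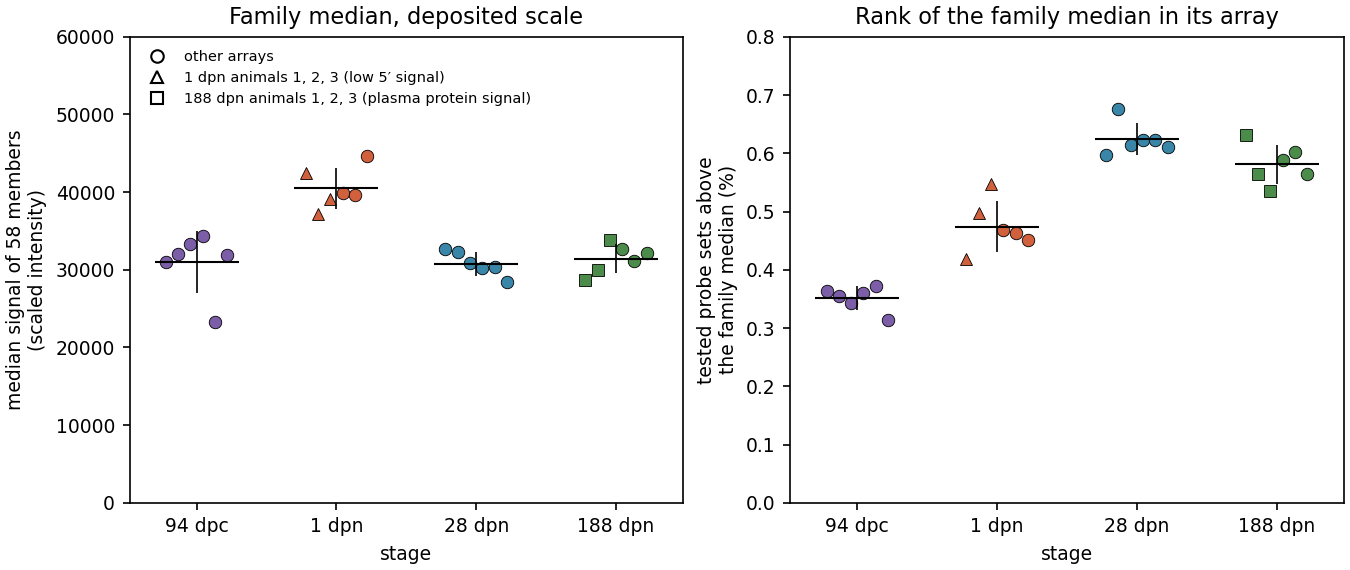
Left, median signal of the 58 members in each array (scaled intensity, 6 arrays per stage) by stage; right, percent of tested probe sets brighter than that median. Bars give mean ± SD, triangles mark 1 dpn animals 1 to 3 and squares 188 dpn animals 1 to 3. The signal is highest at 1 dpn (37149 to 44609.7) on this scale, while the share above the family is lowest at 94 dpc (0.313% to 0.372%).

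Gene signals printed from here on, and their overlap between stages, are deposited values and depend on array scaling. Further log2 differences, folds and calls compare a gene with the family median of the same array, unless the deposited scale is named. The scale is log2 of the gene minus that median, so that array scaling drops out. A fold on this scale is a change of a gene relative to its family. Members moved less than other transcripts on this scale. Of the 55 members whose mean signal exceeded the background of 74.7 (from control probe sets without a target), 50 shifted by less than 0.5 in log2 at 1 dpn against 94 dpc, 48 at 28 dpn against 1 dpn, 54 at 188 dpn against 28 dpn and 49 at 188 dpn against 94 dpc. Their median absolute shift was 0.25, 0.23, 0.087 and 0.18 in that order. Over all tested probe sets it was 0.74, 0.58, 0.45 and 0.75. The centre was taken from the members themselves, and bright probe sets vary less than dim ones, so the gap between these medians is a description.

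Limma called 9 members higher and 9 lower than the family median at 1 dpn against 94 dpc, where 4.96% of all probe sets were called higher and 34.7% lower on the same scale. A fit of only these stages gave 0 higher and 3 lower, the mean of a gene's probe sets gave 25 and 4, and leaving out single arrays moved the higher count between 4 and 13. At 28 dpn against 1 dpn 10 were called higher and 8 lower, beside 23.3% and 2.9%, and a fit of only these stages gave 1 and 3. At 188 dpn against 28 dpn 0 were called higher and 1 lower, beside 3.2% and 10.2%. Trend and robust eBayes settings gave 1 higher there. Over the whole span, 188 dpn against 94 dpc, 7 were called higher and 11 lower, beside 11.7% and 27.4%, and the mean of a gene's probe sets gave 15 and 1. Relative distances did not overlap between the stages for 7 higher and 7 lower members at 1 dpn against 94 dpc (2.07% and 16.5% of all probe sets). The counts were 6 and 8 for 28 dpn against 1 dpn (12.2% and 0.877%), 0 and 4 for 188 dpn against 28 dpn (3.76% and 7.98%), and 9 and 13 for 188 dpn against 94 dpc (8.58% and 19.1%). The comparisons share arrays, so a gene that stands apart at 1 dpn can enter 2 of them.

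**Figure D2:**
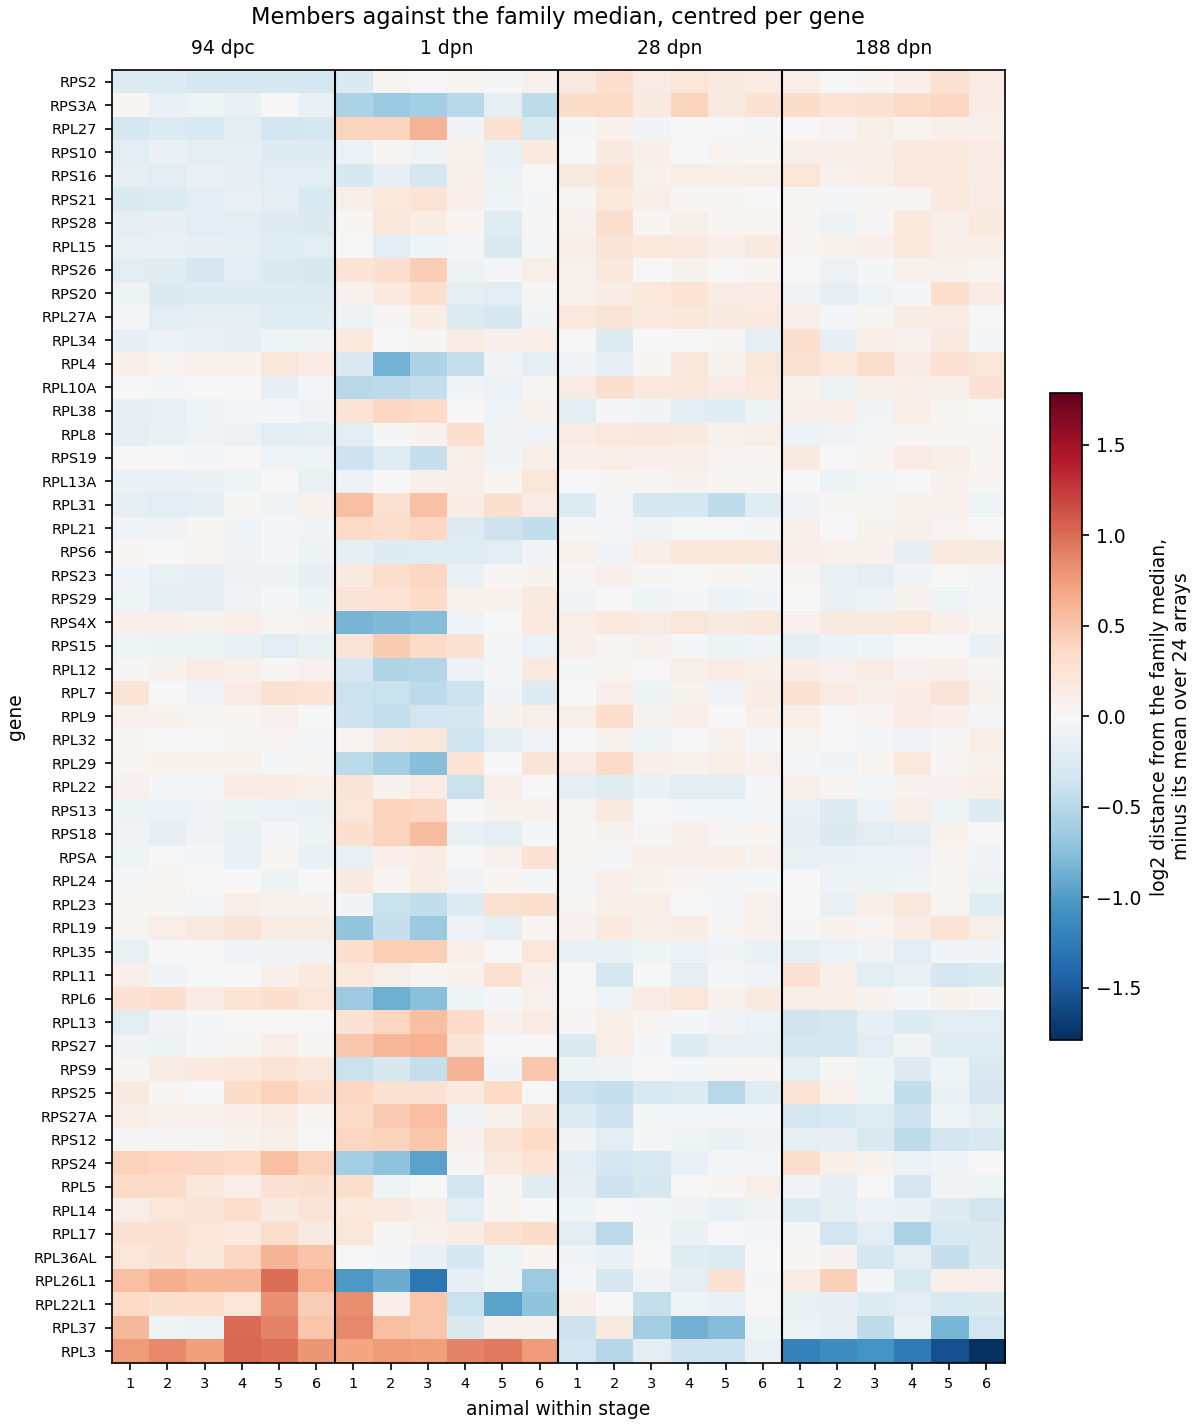
Log2 distance of 55 members (rows) from the family median in each of 24 arrays (columns, grouped by stage), minus the mean of that gene over all arrays; red is higher and blue lower, and rows are ordered by the difference of 188 dpn from 94 dpc. RPL3 in the bottom row passes from red at 94 dpc and 1 dpn to dark blue at 188 dpn, and several rows change colour in 1 dpn animals 1 to 3 alone.

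RPL3 left its family in 2 steps after birth. The protein lies next to the peptidyl transferase centre, where amino acids are joined. In skeletal and heart muscle of mice and humans a second gene, RPL3L, makes a muscle form of the protein; RPL3L is not analysed here. The lowest, median and highest RPL3 signals were 17180.4, 20738 and 26100.5 at 94 dpc, 23567, 26722 and 28618 at 1 dpn, 8463, 9199 and 10013 at 28 dpn, and 3485, 4894 and 6029.5 at 188 dpn. Fetal and newborn arrays overlapped, whereas 28 dpn lay below both and 188 dpn below all others.

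Against the family median RPL3 was 2.18-fold lower at 28 dpn than at 1 dpn (log2 difference -1.12 ± 0.13 SE, limma adjusted p = 2.8e-06). It was 2.02-fold lower at 188 dpn than at 28 dpn (-1.01 ± 0.13, limma adjusted p = 2.1e-05). Across the whole span it was 4.58-fold lower at 188 dpn than at 94 dpc (-2.20 ± 0.13, limma adjusted p = 2.9e-11). At 1 dpn against 94 dpc the difference was -0.06 ± 0.13 with a limma adjusted p of 0.77. The next largest fall of a member above background over the whole span was that of RPL37, with -0.80.

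The RPL3 calls passed in all 36 alternative settings in each of the 3 comparisons. Within 188 dpn the distance from the family median averaged -2.55 in animals 1 to 3, which carry the plasma protein signal, and -2.96 in animals 4 to 6. Without animals 1 to 3 the difference was -1.22 at 188 dpn against 28 dpn and -2.40 at 188 dpn against 94 dpc. Muscle markers moved the other way: 12 of 12 measured were called higher at 188 dpn against 94 dpc on the relative scale, beside 11.7% of all probe sets, with a median of 0.85. What part tissue make-up had in the RPL3 values was not tested. RPL4, whose loop reaches into the exit tunnel near the same centre, differed by 0.13 ± 0.13 at 188 dpn against 94 dpc, and RPL8, also close to that centre, by 0.12 ± 0.11.

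**Figure D3:**
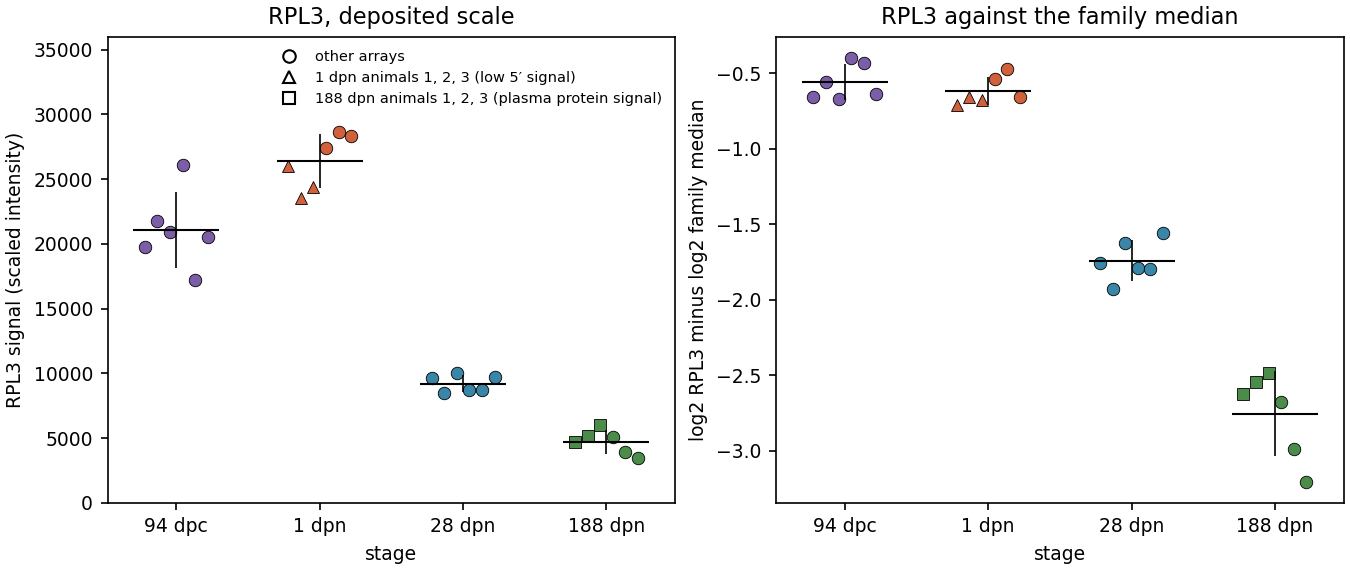
RPL3 signal (left, scaled intensity) and its log2 distance from the family median (right) in each of 6 arrays per stage; bars give mean ± SD, triangles mark 1 dpn animals 1 to 3 and squares 188 dpn animals 1 to 3. The signal is 17180.4 to 28618 before and at birth, 8463 to 10013 at 28 dpn, with 3485 to 6029.5 found at 188 dpn.

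The interquartile range of the members' log2 signals was 0.22 to 0.37 at 94 dpc, 0.53 to 1.18 at 1 dpn, 0.47 to 0.73 at 28 dpn and 0.35 to 0.57 at 188 dpn. In 1 dpn animals 1 to 3 it was 0.79, 1.05 and 1.18, above every other array, while 1 dpn animals 4 to 6 lay within the 28 dpn range. The members called higher at 1 dpn than at 94 dpc were RPL13, RPL27, RPL31, RPL35, RPS12, RPS15, RPS21, RPS26 and RPS29. Those called lower were RPL4, RPL6, RPL7, RPL19, RPL26L1, RPL36AL, RPS3A, RPS4X and RPS24. Without 1 dpn animals 1 to 3, the arrays with low 5′ signal, 0 of the 9 higher calls and 3 of the 9 lower calls remained (RPL7, RPL26L1 and RPL36AL), while all 18 kept their sign. In that fit 4.11% of all probe sets were called higher and 31.3% lower, and RPS2 was newly called higher and RPL5, RPL21 and RPL22L1 newly called lower.

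RPL27, a large-subunit protein and a Diamond-Blackfan anaemia gene in humans, had the largest rise among members past the threshold. Its signal was 40834, 53242 and 65809 at 1 dpn (lowest, median and highest) and 20273, 29043 and 33021 at 94 dpc. The signals did not overlap, but the distances from the family median did. The relative rise was 1.42-fold (0.50 ± 0.13, limma adjusted p = 0.0039). Without 1 dpn animals 1 to 3 it was 0.26 (limma adjusted p = 0.12). RPS26, which lines the mRNA exit channel, rose by 0.41, and RPL31, on the rim of the exit tunnel, by 0.40. RPL13 of the large subunit rose by 0.33. Without those 3 arrays these 3 genes stood at 0.24, 0.27 and 0.23, with limma adjusted p between 0.11 and 0.15.

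RPL26L1 had the largest fall at birth among the 58 members. It encodes a near-copy of RPL26, a protein beside the tunnel exit, and a probe set may not tell such copies apart. Its signal was 956, 1478 and 2259.8 at 1 dpn (lowest, median and highest), against 2690.3, 2967 and 3104 at 94 dpc, with no overlap. The relative difference was -1.34 ± 0.19, or 2.54-fold lower (limma adjusted p = 9.3e-06). Without 1 dpn animals 1 to 3 it was -0.96 (limma adjusted p = 0.00040).

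RPS24, a small-subunit protein, had signals of 14729.8, 24839 and 38385 at 1 dpn, against 24629, 30668 and 31945 at 94 dpc. It fell by 0.72 ± 0.18 relative to the family (limma adjusted p = 0.0026), mostly in 3 arrays. The distance from the family median averaged -1.22 in 1 dpn animals 1 to 3 and -0.31 in 1 dpn animals 4 to 6. RPS4X, the X-linked form of its protein, averaged -0.98 and -0.13 in the same sets, and RPL6 of the large subunit -1.10 and -0.35. All 3 genes kept these sets apart without overlap. Without 1 dpn animals 1 to 3 the birth differences of RPS24, RPL6 and RPS4X were -0.27, -0.24 and -0.03, with limma adjusted p of 0.13, 0.12 and 0.85. For RPS4X, leaving out any 1 of these 3 animals already lost the call, with limma adjusted p of 0.071 to 0.074.

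RPL6 also depended on the probe set. With the mean of both its probe sets the newborn difference turned to 0.45, and that of 28 dpn against 1 dpn to -0.57. The second probe set is far dimmer, with a mean signal of 448 against 26038. On the deposited scale it rose by 1.27 at 1 dpn against 94 dpc, while the bright one differed by -0.22. RPL4 fell by 0.49 ± 0.13 (limma adjusted p = 0.0046), and the difference was -0.32 without 1 dpn animals 1 to 3 (limma adjusted p = 0.063).

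**Figure D4:**
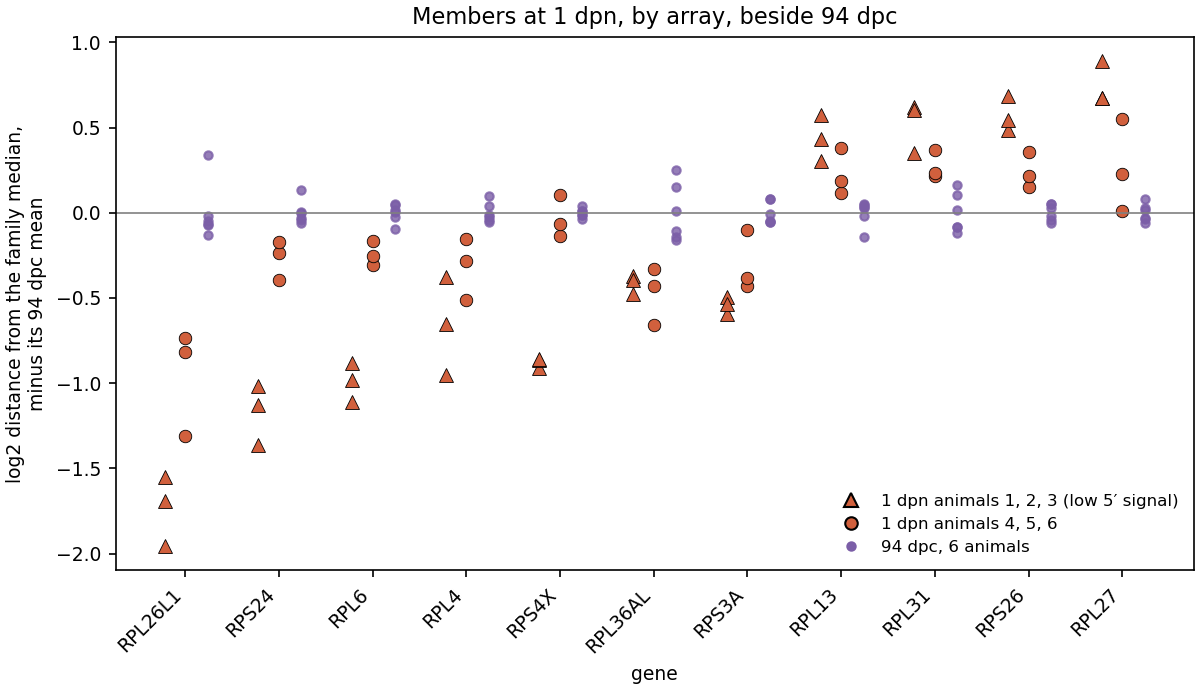
Log2 distance from the family median minus the 94 dpc mean of the gene, for 11 members at 1 dpn (triangles, animals 1 to 3; large circles, animals 4 to 6) and at 94 dpc (small circles). RPS24, RPL6 and RPS4X are far below 0 in 1 dpn animals 1 to 3 and close to it in animals 4 to 6, while the 2 sets overlap for RPL36AL.

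Between birth and 28 dpn, 3 shifts besides RPL3 held with and without the 3 low 5′ arrays. RPS3A, a small-subunit protein near the mRNA exit, had signals of 38501, 42171 and 46617 at 28 dpn (lowest, median and highest) and of 26707, 32374 and 39998 at 1 dpn. Only the top of the newborn range reached the 28 dpn arrays, and the distances from the family median did not overlap. Its relative rise was 1.70-fold (0.77 ± 0.11, limma adjusted p = 3.3e-05), and 0.65 without 1 dpn animals 1 to 3 (limma adjusted p = 0.0011).

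RPL31, on the tunnel rim, was 23961, 26869 and 34292 at 28 dpn, against 47314, 52939 and 66657 at 1 dpn, with no overlap. Relative to the family it fell by 0.57 ± 0.12 (limma adjusted p = 0.00095), and the difference was -0.45 without 1 dpn animals 1 to 3 (limma adjusted p = 0.018). RPS25, which some viral and cellular messages need for cap-independent initiation, was 16466, 18924 and 19540.5 at 28 dpn and 34068, 35170.1 and 41917 at 1 dpn. It fell by 0.58 ± 0.13 relative to the family (limma adjusted p = 0.0027) and the difference was -0.51 without those arrays (limma adjusted p = 0.030). With the mean of its 3 probe sets the RPS25 call was lost (limma adjusted p = 0.24).

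Other calls of 28 dpn against 1 dpn were less stable. RPL6, RPL7, RPL9, RPL10A, RPL19, RPL26L1, RPL4, RPS4X and RPS6 were also called higher, and RPL35, RPL37, RPS12, RPS27 and RPS27A lower. None of these remained without 1 dpn animals 1 to 3, where RPL21, RPL22L1 and RPL27A were called higher instead, beside 19.3% of all probe sets higher and 1.42% lower. RPL26L1 rose by 0.62 ± 0.19 over all arrays (limma adjusted p = 0.017) and differed by 0.23 without them (limma adjusted p = 0.40). RPS4X rose by 0.55 ± 0.16 over all arrays (limma adjusted p = 0.014) and differed by 0.13 without them.

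RPL37, a zinc-binding protein of the large subunit, fell by 0.72 ± 0.24 (limma adjusted p = 0.027). Its call was lost on leaving out any 1 of 6 arrays, namely 1 dpn animals 1, 2 or 3 or 28 dpn animals 3, 4 or 5, with limma adjusted p up to 0.070. RPL6 rose by 0.47 ± 0.15 (limma adjusted p = 0.027), and that call was lost without 1 dpn animals 1, 2 or 3 or 28 dpn animals 4 or 6, with limma adjusted p up to 0.071.

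**Figure D5:**
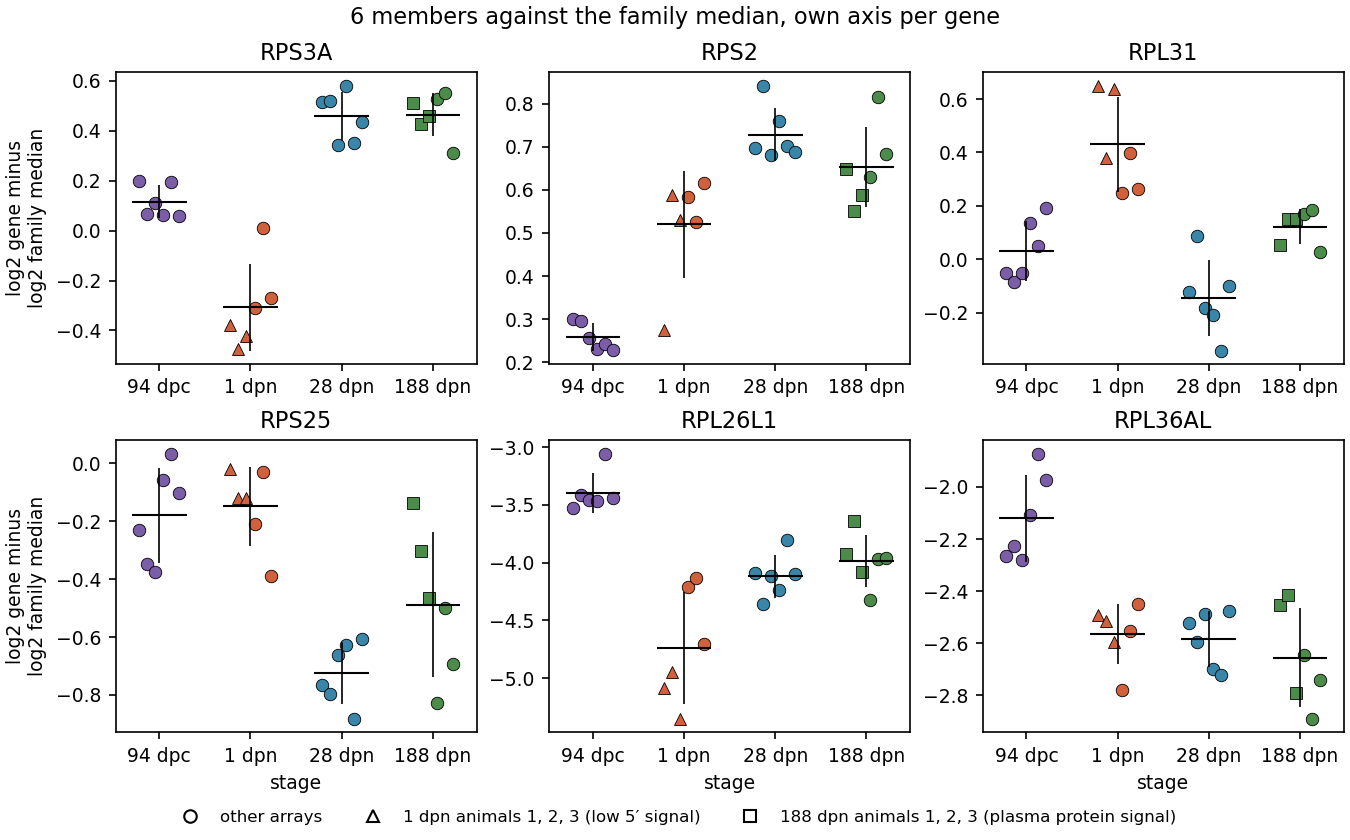
Log2 distance from the family median of 6 members by stage, 6 arrays each, with an axis of its own per gene; bars give mean ± SD, triangles mark 1 dpn animals 1 to 3 and squares 188 dpn animals 1 to 3. RPS3A and RPS2 end higher than at 94 dpc, RPL31 peaks at 1 dpn, and RPL26L1 and RPL36AL lie lower at each later stage than at 94 dpc.

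From 28 to 188 dpn the family hardly changed apart from RPL3. Differences of the 54 other members above background lay between -0.24 (RPL13) and 0.27 (RPL31), and 53 of 55 were under 0.25 in size. Neither end passed the test, with limma adjusted p of 0.17 and 0.15. Without 188 dpn animals 1 to 3 RPL3 again was the 1 member called, beside 6.58% of all probe sets called lower. RPL26 was called lower in addition when 188 dpn animal 3 or animal 5 was left out (limma adjusted p of 0.050 and 0.044).

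Between the ends of the series, 188 dpn against 94 dpc, RPL15, RPL27, RPS2, RPS3A, RPS10, RPS16 and RPS21 were called higher. RPL3, RPL5, RPL14, RPL17, RPL22L1, RPL26, RPL26L1, RPL36AL, RPL37, RPS12 and RPS27A were called lower. Thus 5 of the 7 higher calls were small-subunit genes and 9 of the 11 lower calls large-subunit genes. Of 24 small-subunit members 20.8% were called higher and 8.33% lower, and of 34 large-subunit members 5.88% and 26.5%. All probe sets gave 11.7% and 27.4%, so the large-subunit share of lower calls was near that of all probe sets. Without 188 dpn animals 1 to 3, RPS2 was the 1 higher call that remained. In that fit 8 of the 11 lower calls remained, those of RPL22L1, RPL5 and RPS27A being lost, and RPS25 was added, beside 9.2% of all probe sets called higher and 22.8% lower. All 18 kept their sign.

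RPS2, at the entry of the mRNA channel, was 43825, 50729.9 and 54826 at 188 dpn (lowest, median and highest), against 27496, 38833 and 40363 at 94 dpc. The groups did not overlap. The relative rise was 1.31-fold (0.39 ± 0.11, limma adjusted p = 0.0045), and 0.45 without 188 dpn animals 1 to 3 (limma adjusted p = 0.017). With quantile normalization first it was 0.19 and not called (limma adjusted p = 0.17). RPS3A rose by 0.35 ± 0.11 (limma adjusted p = 0.017) and RPS10, at the mRNA entry, by 0.33 ± 0.10 (limma adjusted p = 0.014), with limma adjusted p of 0.089 and 0.054 without 188 dpn animals 1 to 3. RPL27 rose by 0.34 ± 0.13 with a limma adjusted p of 0.042, and this call was lost in 18 of 36 settings.

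RPL37 was 531, 782 and 898 at 188 dpn, against 919, 1318 and 2088 at 94 dpc, with no overlap. The relative difference was -0.80 ± 0.24, or 1.74-fold lower (limma adjusted p = 0.0092), and -0.90 without 188 dpn animals 1 to 3 (limma adjusted p = 0.030). Quantile normalization, and averaging the probe sets of every gene before centring, each lost this call. Over all arrays RPL37 read 501 to 2321, far below a family median of at least 23222. Whether its probe set reads its mRNA well was not tested.

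RPL26 lay near background, with signals of 8 to 88 and a mean of 35.2 at 188 dpn, and of 62 to 132 with a mean of 88.9 at 94 dpc. On the deposited scale, with the background level in place of the 188 dpn mean, it was at least 1.19-fold lower at 188 dpn (limma adjusted p = 0.025). It was also called lower on the relative scale (limma adjusted p = 0.024). The call on the relative scale was lost without 94 dpc animal 6, or without 188 dpn animal 2 or animal 6, with limma adjusted p up to 0.070. RPL30, the dimmest member, and RPS15A were not above background at any stage by their means, so they bear only an upper bound on signal and no fold is given. Whether the probe sets of RPL26, RPL30 and RPS15A read their mRNAs well was not tested, so their low signals do not show low expression. RPS20, the brightest member, was 42253, 50237 and 60614 at 188 dpn and 30906, 43407 and 45853 at 94 dpc. Its relative difference was 0.24 ± 0.12 (limma adjusted p = 0.13).

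Members with a second gene behaved as follows. RPL26L1 was 1629, 1988 and 2403 at 188 dpn (lowest, median and highest), against 2690.3, 2967 and 3104 at 94 dpc. The groups did not overlap, and it fell by 0.59 ± 0.19 relative to the family (limma adjusted p = 0.015). RPL36AL, a near-copy of RPL36A, was 4203, 5062 and 5621 at 188 dpn and 6344, 6854 and 8141 at 94 dpc. Again these 2 groups did not overlap. At 1 dpn the RPL36AL signals spanned 5808 to 8160 and overlapped those of 94 dpc, while the deposited family median was higher at 1 dpn. Relative to the family RPL36AL was lower by 0.44 ± 0.12 at 1 dpn (limma adjusted p = 0.0068) and by 0.53 ± 0.12 at 188 dpn (limma adjusted p = 0.0014), both against 94 dpc. Its differences between 1, 28 and 188 dpn were -0.02 and -0.07. Averaging the probe sets of every gene before centring lost both RPL36AL calls.

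RPL22L1, the second gene of the RNA-binding large-subunit protein RPL22, was 3352, 3509 and 3755 at 188 dpn, against 5072, 5270.0 and 5637 at 94 dpc. Relative to the family it fell by 0.61 ± 0.23 (limma adjusted p = 0.037). The call was lost on leaving out any 1 of 8 arrays (94 dpc animals 1, 5 or 6, or 188 dpn animals 2 to 6), with limma adjusted p up to 0.087. At 1 dpn the gene divided the arrays: its distance from the family median averaged -2.46 in animals 1 to 3 and -3.63 in animals 4 to 6. Leaving out 1 dpn animals 1 to 3 took its newborn difference to -1.09 (limma adjusted p = 5.2e-05), against -0.51 over all arrays (limma adjusted p = 0.082). RPL22 itself differed by -0.01 ± 0.12 at 188 dpn against 94 dpc and by -0.05 ± 0.12 at 1 dpn against 94 dpc.

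The small subunit stood higher against the large one after birth. The median log2 signal of its members minus that of the large-subunit members spanned 0.10 to 0.22 at 94 dpc and 0.26 to 0.67 at 1 dpn. It spanned 0.33 to 0.49 at 28 dpn, with 0.18 to 0.41 found at 188 dpn. The 94 dpc arrays overlapped neither 1 dpn nor 28 dpn, and overlapped 188 dpn. The median relative difference of small-subunit members was 0.24 at 1 dpn against 94 dpc and 0.05 at 188 dpn against 94 dpc, and that of large-subunit members was -0.10 and -0.03. These medians over members carry no test, and signals of different probe sets do not give relative amounts of protein.

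Members with a shared place or role split. Of 14 measured genes that cause Diamond-Blackfan anaemia in humans when mutated, 5 were called higher and 1 lower at 1 dpn against 94 dpc, and 3 higher and 2 lower at 188 dpn against 94 dpc. Over all probe sets the shares were 4.96% and 34.7% for the first comparison and 11.7% and 27.4% for the second, and over all members 15.5% and 15.5%, then 12.1% and 19.0%. The 14 genes had median relative differences of 0.21 and 0.07, beside 0.04 and 0.01 for all members. Without 1 dpn animals 1 to 3 the newborn counts were 0 and 1, beside 4.11% and 31.3% of all probe sets. Without 188 dpn animals 1 to 3 the later counts were 0 and 1, beside 9.2% and 22.8%. RPL5 and RPL11, which bind 5S rRNA and restrain the p53 regulator MDM2, differed by -0.36 ± 0.13 (limma adjusted p = 0.030) and -0.14 ± 0.12 (limma adjusted p = 0.41) at 188 dpn against 94 dpc. Of 6 measured proteins along the mRNA channel, RPS2 and RPS3A were called higher at 188 dpn against 94 dpc and 0 lower, and RPS2 alone without 188 dpn animals 1 to 3. The 5 measured tunnel-exit proteins gave 0 higher and 2 lower, RPL17 and RPL26, of which RPL26 lies near background and lost its call without any 1 of 3 arrays. The shares of all probe sets were 11.7% higher and 27.4% lower.

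The stalk proteins are outside the rule but belong to the large subunit, where they recruit elongation factors. RPLP2 was 8536, 10584 and 12863 at 188 dpn (lowest, median and highest), against 12514, 18230.3 and 23011 at 94 dpc. On the relative scale it rose by 0.56 ± 0.17 at 1 dpn against 94 dpc (limma adjusted p = 0.010) and fell by 0.96 ± 0.17 at 28 dpn against 1 dpn (limma adjusted p = 0.00019). By 188 dpn against 94 dpc it fell by 0.76 ± 0.17 (limma adjusted p = 0.00092). The first pair of calls held without 1 dpn animals 1 to 3, and the last without 188 dpn animals 1 to 3. Its dimer partner RPLP1 had a rise of 0.53 ± 0.14 at 28 dpn against 1 dpn (limma adjusted p = 0.0091) and of 0.57 ± 0.14 at 188 dpn against 94 dpc (limma adjusted p = 0.0030). Without 1 dpn animals 1 to 3 the first of these was 0.21 (limma adjusted p = 0.23). RPLP0, the base of the stalk, RACK1 and FAU passed in 0 of the 4 comparisons over all arrays, though RPLP0 was called higher at 28 dpn against 1 dpn without 1 dpn animals 1 to 3 (0.35, limma adjusted p = 0.039).

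A list of other TOP mRNAs did not keep to the ribosomal proteins. Its measured genes include no elongation factor, stalk protein or RACK1, which were listed apart, so it does not stand for the whole class. Of 13 measured, 12 were called lower and 0 higher than the family median at 1 dpn against 94 dpc, with a median of -0.86 beside -0.55 for all probe sets, of which 34.7% were called lower and 4.96% higher. In the fit that leaves out 1 dpn animals 1 to 3, 11 were called lower, beside 31.3% of all probe sets. EIF3E, a subunit of the initiation factor eIF3, fell by 1.46 ± 0.17 (limma adjusted p = 1.2e-06), and EIF4A2, an initiation helicase, by 1.44 ± 0.19 (limma adjusted p = 6.4e-06). EIF4A2 read 5015 to 7256 in 1 dpn animals 1 to 3 and 12422 to 13122 in 1 dpn animals 4 to 6, and its difference was -0.92 without animals 1 to 3. Over the whole span 7 were called lower and 2 higher, beside 27.4% and 11.7% of all probe sets. PABPC1, the poly(A)-binding protein, was 3034, 4142 and 5588 at 188 dpn and 12069, 14007 and 15523 at 94 dpc, and fell by 1.79 ± 0.17 (limma adjusted p = 1.6e-08). EIF4A2 rose by 0.91 ± 0.19 over the same span (limma adjusted p = 0.00063).

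A list named for elongation had 6 measured genes: EEF1A1, EEF1B2, EEF1D, EEF1E1, EEF1G and EIF5A. Of these, 3 were called higher and 0 lower at 188 dpn against 94 dpc, beside 11.7% and 27.4% of all probe sets. Without 188 dpn animals 1 to 3 the counts were 2 and 0, beside 9.2% and 22.8%. At 1 dpn against 94 dpc EIF5A was called higher and EEF1E1 lower, beside 4.96% and 34.7%. The EEF1E1 difference was -0.75, and -0.55 without 1 dpn animals 1 to 3 (limma adjusted p = 0.058). The 6 listed genes had a median relative difference of 0.22 at 1 dpn against 94 dpc, and the stalk proteins, RACK1 and FAU one of 0.17. EIF5A, which keeps ribosomes moving through prolines, was 13476, 15671 and 18790.5 at 188 dpn and 4928, 6333 and 8278 at 94 dpc. Its relative rise was 2.44-fold (1.29 ± 0.11, limma adjusted p = 4.2e-09), beside 0.67 ± 0.11 at 1 dpn against 94 dpc (limma adjusted p = 5.6e-05).

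Of 32 measured genes of ribosome assembly, 4 were called higher and 7 lower at 188 dpn against 94 dpc, shares of the list near the 11.7% and 27.4% of all probe sets, with a median relative difference of -0.00 beside -0.32 for all probe sets. MYC, the transcription factor that drives ribosome production, was 166, 179 and 347 at 188 dpn and 731, 1085 and 1375 at 94 dpc, and fell by 2.29 ± 0.40 relative to the family (limma adjusted p = 6.7e-05). NOP56, of the complex that methylates rRNA, fell by 1.17 ± 0.19 (limma adjusted p = 2.7e-05). SBDS, which helps to release a factor from the new large subunit, rose by 1.16 ± 0.15 (limma adjusted p = 1.1e-06). Of 8 measured regulators of TOP mRNAs, 5 were called higher and 0 lower over the same span, beside 11.7% and 27.4% of all probe sets. Without 188 dpn animals 1 to 3 the counts were 3 and 0, beside 9.2% and 22.8%. CNBP, which binds such mRNAs, was 30856, 31029 and 34368 at 188 dpn and 8396, 9966 and 11757 at 94 dpc, and rose by 1.65 ± 0.17 (limma adjusted p = 7.3e-08). Proliferation genes, 8 measured, were all called lower over the same span, beside 27.4% of all probe sets, with a median of -2.94. Mitochondrial ribosomal proteins, also 58 genes, had 28 called higher and 1 lower at 188 dpn against 94 dpc, beside 11.7% and 27.4% of all probe sets, and a median relative difference of 0.44.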

How the data were processed

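Values as deposited are signal intensities on a linear scale, 1 for each probe set on each array, and the submitters' processing notes name GCOS 1.1.1. Per the labels' protocols, labelled cRNA started from 0.5 µg of RNA. The authors had scaled each array: after trimming 2% of probe sets from both tails, array means were 498 to 499. How probes were summarised and to what target arrays were scaled is not given in the sources used here. Of 24118 probe sets 183 controls were left out and 23935 were tested, with no filter on low values. Precision is limited by the number of arrays.

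Deposited values went to log2 with nothing added, and for the relative scale the median log2 of the 58 members in the same array was subtracted from every probe set. Differences were fitted with limma 3.58.1 in R 4.3.3 (lmFit and eBayes, 24 arrays, 4 stage means, 20 residual degrees of freedom, two-sided), adjusted by Benjamini-Hochberg over all 23935 probe sets, threshold 0.05. ± after a log2 difference is its standard error. The fit was tested on simulated data. Mother, sex and batch are not in the labels, so none was a term. Animals are numbered by sample order within a stage.

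Symbols come from the platform annotation: 10069 tested probe sets have 1, 198 several and 13668 none. All 58 members matched a RefSeq gene of the same symbol. Members have 88 probe sets, and 22 genes have more than 1. Background is the 95th percentile of 17 Tag control probe sets (signal 74.7), chosen after the data were seen, and 3 members had a mean under it. Members, companion lists and marker lists were chosen with earlier results of these data known. The genes described singly are, per comparison, the 4 largest rises and 4 largest falls past the threshold, members with a second gene and its partner, the brightest and dimmest member, and up to 4 called genes of each companion list; further members called are listed, and RPL5, RPL8, RPL11 and other single values beside them serve as context and were chosen after their values were seen. Alternatives covered scaling, centre, probe set, added constant, dim filter, threshold, eBayes settings, stages fitted and arrays left out. Figures were drawn with matplotlib 3.10.9 in Python 3.11.15 (numpy 2.4.6, pandas 2.3.3). Files were read with the R package data.table, version 1.17.8.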

Additional observations from a re-analysis of the deposited data

Results flagged for a closer look

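In 80 groups of 6 arrays, an array was looked for whose gap to the others is large against the range of its group, and 7 were found. Chance alone picks about 1 group in 20. At 94 dpc the family median of animal 5 was 14.50 in log2 signal, below the 14.92 to 15.07 of the other 5 animals. The same animal lay above the others for 3 genes relative to the family median: RPL22L1 at -2.13 against -2.72 to -2.50, RPL26L1 at -3.06 against -3.53 to -3.42, and RPS24 at 0.085 against -0.11 to -0.04. Its signals were within those of the others for RPL22L1 (5311 against 5072 to 5637) and RPL26L1 (2791 against 2690 to 3104). For RPS24 its signal was the lowest (24629 against 30081 to 31945). Each of these 3 distances is taken from the low family median of the same array, so they are not independent of that flag. What made that median low was not tested. Animal 5 is the array with the high macrophage and antigen presentation genes. Animal 1 of 94 dpc stood apart for RPL13 at -0.70 against -0.58 to -0.50 and for RPS20 at 0.56 against 0.39 to 0.42. Animal 1 of 1 dpn was low for RPS2 at 0.28 against 0.52 to 0.62, and without it RPS2 was called higher at 1 dpn against 94 dpc (log2 difference 0.31, limma adjusted p = 0.023).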

How the results depend on the processing

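No paired analysis was possible because animals are numbered by sample order alone and the numbers carry no pairing. The family median shift depended on array scaling. With quantile normalization it was -0.16, -0.26 and -0.41 in log2 at 1 dpn against 94 dpc, 28 dpn against 1 dpn and 188 dpn against 94 dpc. With arrays centred on their medians it was 0.76 at 1 dpn against 94 dpc, 0.25 at 188 dpn against 28 dpn and 0.57 at 188 dpn against 94 dpc. With centring on the hybridisation controls, an alternative chosen after seeing the data, it was -0.86, 0.36 and -0.50 in the order first given. Leaving out single arrays moved it between 0.36 and 0.48, -0.42 and -0.36, -0.05 and 0.00, and -0.05 and 0.07 in the 4 comparisons.

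Deposited-scale calls followed the scaling. Shares of all probe sets are not given beside the member counts in this section. These counts therefore show only how member calls depend on the setting. At 1 dpn against 94 dpc quantile normalization gave 1 higher and 19 lower and the hybridisation controls 0 and 57, while the mean of all probe sets gave 3 lower and leaving out 1 dpn animals 1 to 3 gave 2 lower. At 28 dpn against 1 dpn the controls gave 26 higher and 1 lower, array medians 0 higher, the fit without 1 dpn animals 1 to 3 gave 0 higher and 18 lower, and that without 188 dpn animals 1 to 3 gave 0 higher. At 188 dpn against 28 dpn quantile normalization gave 1 and array medians 7 higher. At 188 dpn against 94 dpc quantile normalization gave 0 higher and 34 lower, array medians 40 and 1, the controls 0 and 39, and the fit without 188 dpn animals 1 to 3 gave 1 higher. Without single arrays the higher and lower counts ranged over 29 to 33 and 1 to 2, 0 to 1 and 27 to 32, 0 to 0 and 1 to 2, and 1 to 7 and 5 to 10 in the 4 comparisons. In 188 dpn against 94 dpc, 1 was higher without 94 dpc animal 5, 2 without 188 dpn animal 3 or 4 and 3 without animal 5, and 5 were lower without 94 dpc animal 4.

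On the relative scale, at 1 dpn against 94 dpc, the mean of all probe sets gave 25 higher and 4 lower, trend and robust settings 17 higher, the 0.01 threshold 3 higher, a fit of only these stages 0 higher and 3 lower, and leaving out 1 dpn or 188 dpn animals 1 to 3 gave 1 and 5 higher. At 28 dpn against 1 dpn the mean of all probe sets gave 4 higher, trend and robust settings 16 higher, the 0.01 threshold 2 higher and 4 lower, a fit of only these stages 1 and 3, and leaving out 1 dpn animals 1 to 3 gave 4 and 3. At 188 dpn against 28 dpn trend and robust settings gave 1 higher. At 188 dpn against 94 dpc the family mean as centre gave 12 higher and 7 lower, the mean of all probe sets 15 and 1, the constant 16 gave 4 higher, the 0.01 threshold 1 and 5, trend and robust settings 11 higher, and leaving out 188 dpn animals 1 to 3 gave 1 higher. Without single arrays the higher and lower counts ranged over 4 to 13 and 8 to 11, 6 to 12 and 6 to 10, 0 to 0 and 1 to 2, and 4 to 8 and 7 to 11. Higher counts fell to 4 or 5 at 1 dpn against 94 dpc without 94 dpc animals 1, 2 or 6 or 1 dpn animals 2 or 3. They fell to 6 at 28 dpn against 1 dpn without 1 dpn animals 1 or 2 or 28 dpn animals 4 or 6. At 188 dpn against 94 dpc they fell to 4 without 94 dpc animals 1, 2, 3 or 6 or 188 dpn animals 3 to 6, and lower counts to 7 without 94 dpc animal 6 or 188 dpn animals 2 or 4. RPL6 reversed with the mean of its probe sets, to 0.45 at 1 dpn against 94 dpc and -0.57 at 28 dpn against 1 dpn. Causes of these changes were not tested.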

Other observations

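For 8 members (RPL6, RPL12, RPL13A, RPL17, RPL23, RPL24, RPL32 and RPS6) the array holds a second, dimmer probe set whose name has the same cluster number as the bright one but the other letter (A or S). What the letter marks is not stated in the files used here. On the deposited scale all 8 dim probe sets were called higher at 1 dpn against 94 dpc, and all 8 were called lower at 28 dpn against 1 dpn. The newborn difference of the dim probe set minus that of its bright partner had a median of 1.52 in log2 and a range of 1.03 to 1.86, and at 28 dpn against 1 dpn the median was -1.45. The dim probe set of RPL23 read 8514, 6939 and 8389 in 1 dpn animals 1 to 3. It read 4008, 2806 and 4899 in 1 dpn animals 4 to 6, against 1135 to 1434 at 94 dpc. The newborn arrays thus lay above the fetal ones in both sets of animals. That of RPL13A read 705 to 1980.0 at 1 dpn and 273 to 316 at 94 dpc. A further 4 such pairs did not pass as member pairs by annotation and had a bright probe set with a mean above 10000. Whether any of them belongs to a ribosomal protein gene was not checked. All 4 dim probe sets were called higher at 1 dpn against 94 dpc, with a median of 1.70 over their bright partners. At 28 dpn against 1 dpn 3 of 4 were called lower. The pattern was noticed in these data, and its cause was not tested.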
